A study of Neurospora crassa OR74A with 3 samples.

Results

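Gluconeogenesis and the glyoxylate cycle were followed through 5 genes of the filamentous fungus Neurospora crassa, of 9730 genes in the deposited tables. They were taken by locus for their known enzymes, and all 5 passed the abundance filter, a 3-library average of 10 or more CPM (counts scaled to the library total), with 109 reads or more in every library. acu-6 (NCU09873, also listed as con-3 and pck-1) encodes phosphoenolpyruvate carboxykinase, and fbp-1 (NCU04797) encodes fructose bisphosphatase. acu-3 (NCU04230) encodes isocitrate lyase, acu-9 (NCU10007) encodes malate synthase, and acu-5 (NCU06836) encodes acetyl-CoA synthetase. The libraries came from mycelia of 3 strains grown for 16 h in sucrose, then washed and kept for 4 h in fresh medium with 2% cellobiose, the disaccharide released from cellulose. All 3 strains carry the Δ3βG deletions, which remove 3 β-glucosidase genes, so that cellobiose is not cut to glucose by the enzymes they encode. Δ3βGΔcdt2Δncu05853 also lacks the cellodextrin transporter gene cdt-2 (NCU08114) and clp1 (NCU05853), a gene for a transporter-like protein. Δ3βGΔncu05853 lacks clp1 alone on top of the Δ3βG deletions, and Δ3βG is the parent that both are set against. The series title ties CLP1 to cellulase induction. A strain that lacks cdt-2 but has clp1, and a library from before the transfer, were not analysed here.

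In fungi these enzymes serve growth on acetate, fatty acids and other carbon sources that do not enter glycolysis as sugar. Acetyl-CoA synthetase activates acetate, and isocitrate lyase and malate synthase form the bypass of the citrate cycle that lets acetyl-CoA carbon become net oxaloacetate. Phosphoenolpyruvate carboxykinase turns oxaloacetate into phosphoenolpyruvate, and fructose bisphosphatase later removes a phosphate on the way to hexoses, so both work against steps of glycolysis that run the other way. The bypass and the gluconeogenic enzymes are commonly repressed by glucose. In N. crassa the bypass enzymes are known from glyoxysomes, a form of peroxisome.

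Each strain had 1 library, so differences could not be checked against the spread between cultures and no test was run. The 95% intervals cover counting error only, and PCR reads are not independent molecules. Reads assigned to genes numbered 9808610 in Δ3βGΔcdt2Δncu05853, 9465639 in Δ3βGΔncu05853 and 8586155 in Δ3βG. clp1 had 0, 2 and 4190 reads in that order of strains, and cdt-2 had 9, 2842 and 1907. The deleted β-glucosidase genes had between 0 and 47 reads, the most being those of gh1-1 (NCU00130) in Δ3βGΔncu05853. The hydrophobin gene eas (NCU08457), known from conidia and aerial hyphae, took 0.305% of gene reads in Δ3βGΔcdt2Δncu05853, 20.0% in Δ3βGΔncu05853 and 18.7% in Δ3βG. A list of 6 conidiation markers (the genes with con- as their main symbol, eas and the regulator fl) was made after the data had been seen. It summed to 0.415%, 20.2% and 18.9% of gene reads in the same order, with none at 0 reads, and 4 of the 6 were at least 2-fold lower in Δ3βGΔcdt2Δncu05853 than in Δ3βG, as were 15.4% of all genes compared, and 0 were at least 2-fold higher, as were 19.4%. None of the 6 was at least 2-fold apart in Δ3βGΔncu05853 against Δ3βG, where 0.642% of all genes were lower by that much and 0.55% higher. The markers con-8 (NCU09235) and con-10 (NCU07325) were higher in Δ3βGΔcdt2Δncu05853 than in Δ3βG, at log2 ratios of 0.92 and 0.45, short of 2-fold. Without eas the list summed to 0.110%, 0.141% and 0.208%, and its part in the results on the 5 genes was not tested.

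The 5 genes stood at very different levels, and their order was not the same in all strains. Together they took 0.0305% of gene reads in Δ3βGΔcdt2Δncu05853, 0.130% in Δ3βGΔncu05853 and 0.256% in Δ3βG. Levels of different genes are compared here as RPKM, the authors' reads per kilobase of exon scaled to all reads in the file. In Δ3βG the order was acu-6, acu-9, fbp-1, acu-3 and acu-5, and it was the same in Δ3βGΔncu05853. In Δ3βGΔcdt2Δncu05853 acu-5 stood highest, followed by acu-6, fbp-1, acu-9 and acu-3. The counting intervals of fbp-1 and acu-3 overlapped in Δ3βGΔncu05853 and in Δ3βG, and those of fbp-1 and acu-9 overlapped in Δ3βGΔcdt2Δncu05853. The remaining neighbours in each order had intervals that did not overlap. The ratio of fbp-1 to acu-3 within the Δ3βG library was 1.09 (1.02 to 1.16), an interval that does not hold 1.

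**Figure D1:**
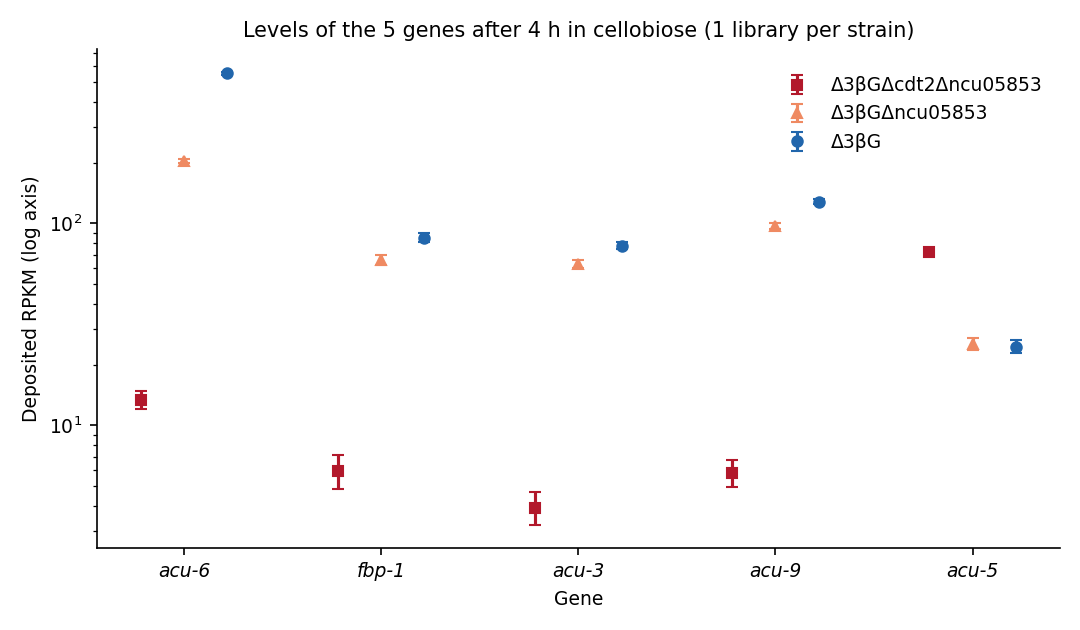
Deposited RPKM (log axis) of the 5 genes in each library, with bars for the 95% Poisson interval of the reads. acu-6, fbp-1, acu-3 and acu-9 lie lowest in Δ3βGΔcdt2Δncu05853, at 3.88 to 13.4 RPKM, whereas acu-5 lies highest there, at 71.8 RPKM.

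Of the gluconeogenic genes, acu-6, for the enzyme that commits carbon to gluconeogenesis, was the most abundant in Δ3βG and differed in steps across the strains. It had 352 reads in Δ3βGΔcdt2Δncu05853, 5502 in Δ3βGΔncu05853 and 13996 in Δ3βG. These reads correspond to 13.4 RPKM (12.0 to 14.9) in Δ3βGΔcdt2Δncu05853, 204 RPKM (198 to 209) in Δ3βGΔncu05853 and 553 RPKM (544 to 563) in Δ3βG. No intervals overlapped, and the library of the strain lacking both cdt-2 and clp1 was lowest. Among the RPKM values of all 9730 genes, acu-6 ranked 3847th in Δ3βGΔcdt2Δncu05853, 185th in Δ3βGΔncu05853 and 52nd in Δ3βG. A rank within a library does not depend on the scaling between libraries.

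fbp-1, whose enzyme acts near the end of the pathway, was less abundant than acu-6 in each strain. It had 109 reads in Δ3βGΔcdt2Δncu05853, 1246 in Δ3βGΔncu05853 and 1503 in Δ3βG, or 5.92 RPKM (4.86 to 7.15), 65.8 RPKM (62.2 to 69.6) and 84.8 RPKM (80.6 to 89.2). Its rank among all genes was 5761 in Δ3βGΔcdt2Δncu05853, 919 in Δ3βGΔncu05853 and 640 in Δ3βG. The library of Δ3βGΔcdt2Δncu05853 lay far below the others, which differed from each other by less.

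The 2 genes of the glyoxylate bypass followed the same order of strains as fbp-1. acu-3, for isocitrate lyase, which splits isocitrate into glyoxylate and succinate, had 116 reads in Δ3βGΔcdt2Δncu05853, 1935 in Δ3βGΔncu05853 and 2238 in Δ3βG. Its level was 3.88 RPKM (3.21 to 4.66) in Δ3βGΔcdt2Δncu05853, 62.9 RPKM (60.1 to 65.8) in Δ3βGΔncu05853 and 77.8 RPKM (74.6 to 81.1) in Δ3βG. acu-9, for malate synthase, which joins glyoxylate with acetyl-CoA, had 164 reads in Δ3βGΔcdt2Δncu05853, 2820 in Δ3βGΔncu05853 and 3491 in Δ3βG. Both genes were thus far lower in Δ3βGΔcdt2Δncu05853 than in Δ3βGΔncu05853 and Δ3βG, which differed from each other by less. In RPKM, acu-9 stood at 5.81 (4.95 to 6.77) in Δ3βGΔcdt2Δncu05853, 97.0 (93.5 to 101) in Δ3βGΔncu05853 and 128 (124 to 133) in Δ3βG.

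acu-5, whose enzyme makes acetyl-CoA from acetate, went the other way. It had 2253 reads in Δ3βGΔcdt2Δncu05853, 816 in Δ3βGΔncu05853 and 740 in Δ3βG. The RPKM values were 71.8 (68.9 to 74.9) in Δ3βGΔcdt2Δncu05853, 25.3 (23.6 to 27.1) in Δ3βGΔncu05853 and 24.5 (22.8 to 26.3) in Δ3βG. Δ3βGΔcdt2Δncu05853 stood above the other strains, whose intervals overlapped. acu-5 made up 71.2% of the summed RPKM of the 5 genes in Δ3βGΔcdt2Δncu05853, 5.56% in Δ3βGΔncu05853 and 2.82% in Δ3βG. acu-6 made up 13.3%, 44.8% and 63.7% of that sum in the same order.

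Between strains, reads were scaled with TMM factors, a scaling that is robust to a few very abundant genes, and ratios are given on that scale. In RNA from whole mycelium, fewer cells with a transcript and less transcript per cell cannot be told apart. In Δ3βGΔcdt2Δncu05853 against Δ3βG, 4 of the 5 genes were at least 2-fold lower, where 15.4% of 6545 genes compared were, and 1 was at least 2-fold higher, where 19.4% were. The 4 lower genes were also at least 4-fold lower, against 4.37% of all genes, and 0 members were at least 4-fold higher, against 8.24%. The median of the 5 log2 ratios was -4.05, and that of all genes was -0.03. acu-6 was 34.3-fold lower (30.9 to 38.3) in Δ3βGΔcdt2Δncu05853, and 31 of the 6545 genes had a lower log2 ratio. The ratios of acu-9, acu-3 and fbp-1 had 55, 59 and 82 genes below them. acu-9 had a log2 ratio of -4.20 (-4.43 to -3.97), acu-3 one of -4.05 (-4.34 to -3.79) and fbp-1 one of -3.57 (-3.87 to -3.29). acu-5 was 3.53-fold higher (3.24 to 3.84), and 9.73% of genes had a higher ratio.

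The size of these ratios depended on the scaling. On library totals without eas, the median of all genes shifted by -0.70 on the log2 scale, and 38.4% of genes were at least 2-fold lower and 10.6% at least 2-fold higher. At least 4-fold lower on that scale were 9.78% of genes. The same 4 members were lower by at least 4-fold and acu-5 was higher by at least 2-fold under each of the 6 scalings. The log2 ratio of acu-6 ran from -5.80 to -5.08 over the settings tried, and that of acu-5 from 1.12 to 1.82.

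In Δ3βGΔncu05853 against Δ3βG, acu-6 was the 1 member at least 2-fold lower, where 0.642% of genes were, and 0 of 5 were at least 2-fold higher, where 0.55% were. At 4-fold, 0 members were apart, with 0.0458% of all genes higher and 0% lower. acu-6 was 2.77-fold lower (2.69 to 2.86), and 8 of the 6545 genes had a lower log2 ratio. fbp-1, acu-3 and acu-9 had log2 ratios of -0.39, -0.33 and -0.43, short of 2-fold, with counting intervals below 0. fbp-1 was at 76.1% of its Δ3βG level, acu-3 at 79.4% and acu-9 at 74.1%. Of all genes, 6.22% had a lower ratio than acu-9 and 9.85% a lower one than acu-3. acu-5 was at 101% of its Δ3βG level, with a ratio of 1.01 (0.915 to 1.12) whose interval includes 1. The median of the 5 log2 ratios was -0.39, and that of all genes was 0.00.

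In Δ3βGΔcdt2Δncu05853 against Δ3βGΔncu05853, which differ in cdt-2 by their labels, 4 members were at least 2-fold lower, where 11.9% of genes were, and 1 at least 2-fold higher, where 16.5% were. At least 4-fold lower were the same 4, against 3.5% of genes, and 0 were at least 4-fold higher, against 6.63%. acu-6 was 12.4-fold lower (11.1 to 13.8), acu-3 13.2-fold (11.0 to 16.1), acu-9 13.6-fold (11.6 to 16.1) and fbp-1 9.06-fold (7.44 to 11.1). The intervals of acu-6, acu-3 and acu-9 overlapped. That of fbp-1 overlapped those of acu-6 and acu-3 at its upper end, but not that of acu-9. The ratio of acu-6 to fbp-1 in Δ3βGΔcdt2Δncu05853 was 0.731 of that in Δ3βGΔncu05853 (0.583 to 0.923). acu-5 was 3.48-fold higher (3.21 to 3.78). These strains share a library with the other comparisons, so the 3 sets of ratios are not independent.

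**Figure D2:**
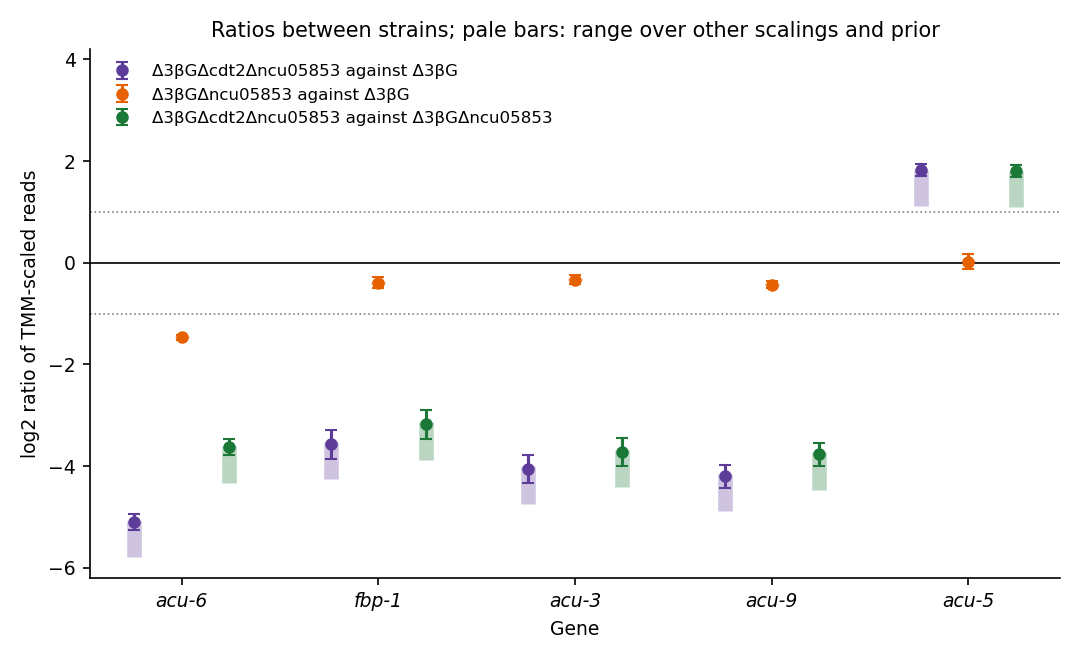
log2 ratios of TMM-scaled reads for the 5 genes in the 3 comparisons, with bars for the 95% counting interval, pale bands for the range over the other scalings and prior, and dotted lines at 2-fold. In Δ3βGΔncu05853 against Δ3βG, acu-6 at -1.47 lies past the lower line, while fbp-1, acu-3 and acu-9 lie between -0.43 and -0.33.

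**Figure D3:**
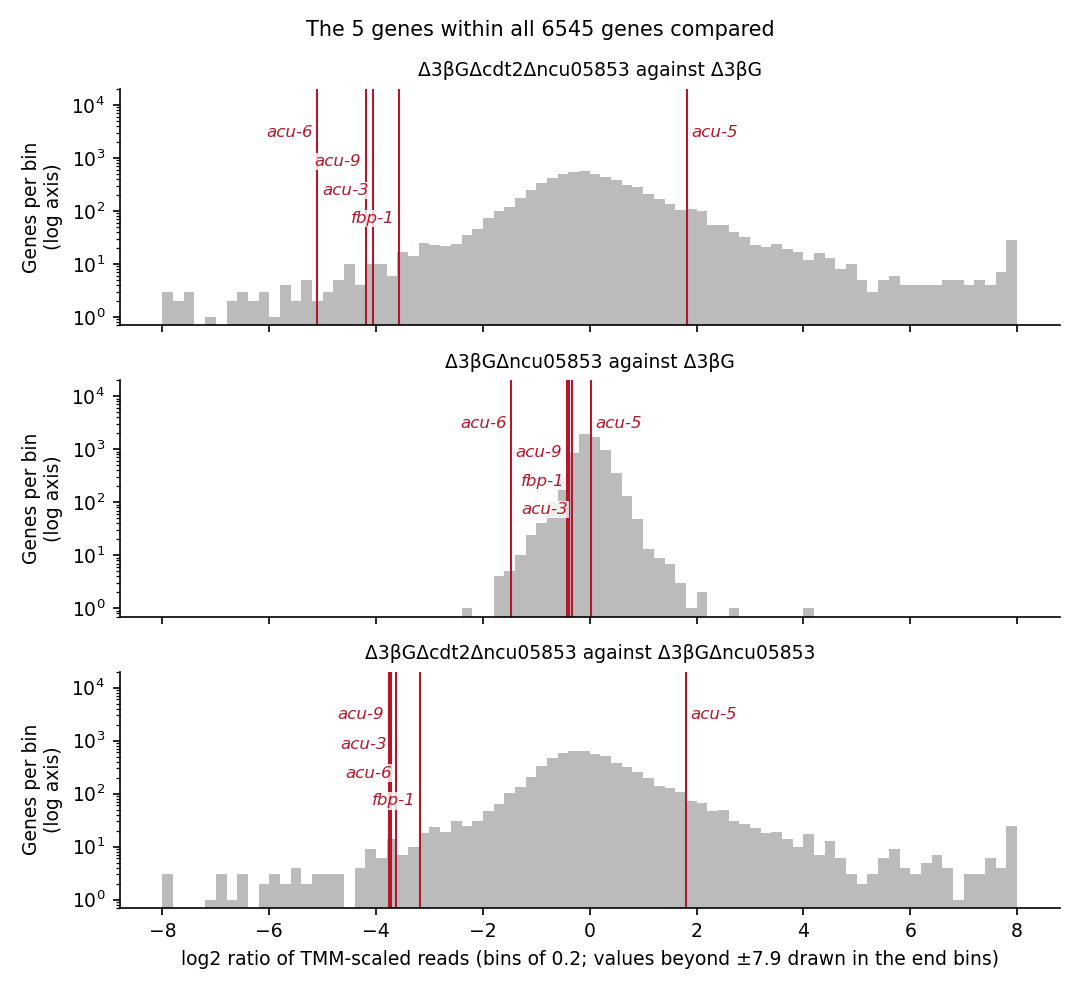
Histograms of the log2 ratios of the 6545 genes compared, with red lines at the 5 members. In Δ3βGΔcdt2Δncu05853 against Δ3βG, acu-6, acu-9, acu-3 and fbp-1 lie in the lower tail, with 31 to 82 genes below them, and acu-5 lies at 1.82 on the upper slope.

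acu-6 differed from the other lower genes in where its difference lay. Of its log2 difference between Δ3βGΔcdt2Δncu05853 and Δ3βG, 28.8% lay between Δ3βGΔncu05853 and Δ3βG. The share was 11.0% for fbp-1, 10.3% for acu-9 and 8.22% for acu-3. Ratios between genes of one library, which need no scaling between libraries, show the same step. The RPKM ratio of acu-6 to acu-3 was 3.45 (2.79 to 4.30) in Δ3βGΔcdt2Δncu05853, 3.24 (3.07 to 3.41) in Δ3βGΔncu05853 and 7.12 (6.81 to 7.44) in Δ3βG. In Δ3βGΔncu05853 it was therefore 0.455 of that in Δ3βG (0.424 to 0.487). Between Δ3βGΔcdt2Δncu05853 and Δ3βGΔncu05853 the quotient was 1.07 (0.857 to 1.34), which includes 1. Pairs of acu-6 with acu-9 and with fbp-1 gave quotients of 0.487 (0.459 to 0.516) and 0.474 (0.437 to 0.515) for Δ3βGΔncu05853 against Δ3βG. These 3 pairs were chosen after their values had been seen.

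The genes of the glyoxylate bypass had a ratio to each other whose quotient between libraries had an interval that includes 1 in each of the 3 comparisons. The RPKM ratio of acu-3 to acu-9 was 0.668 (0.522 to 0.853) in Δ3βGΔcdt2Δncu05853, 0.649 (0.612 to 0.687) in Δ3βGΔncu05853 and 0.606 (0.574 to 0.639) in Δ3βG. The quotient for Δ3βGΔcdt2Δncu05853 against Δ3βG was 1.10 (0.857 to 1.42). A change of the ratio by up to 1.42 times is therefore not excluded by the counts. For Δ3βGΔncu05853 against Δ3βG the quotient was 1.07 (0.989 to 1.16). fbp-1 stood slightly apart from acu-3 and acu-9 in Δ3βGΔcdt2Δncu05853, where its ratio to acu-3 was 1.53 (1.16 to 2.00), against 1.09 (1.02 to 1.16) in Δ3βG. That quotient was 1.40 (1.06 to 1.85). The ratio of fbp-1 to acu-9 was 1.02 (0.793 to 1.31) in Δ3βGΔcdt2Δncu05853 and 0.661 (0.622 to 0.702) in Δ3βG, a quotient of 1.54 (1.19 to 1.99). Both pairs with fbp-1 were chosen after their values had been seen.

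acu-5 and acu-3, which both act on acetate carbon, stood in opposite order in Δ3βGΔcdt2Δncu05853 and in the other strains. The RPKM ratio of acu-5 to acu-3 was 18.5 (15.3 to 22.5) in Δ3βGΔcdt2Δncu05853, 0.402 (0.370 to 0.436) in Δ3βGΔncu05853 and 0.315 (0.290 to 0.343) in Δ3βG. It was 58.7 times as high in Δ3βGΔcdt2Δncu05853 as in Δ3βG (47.8 to 72.6), and 1.28 times as high in Δ3βGΔncu05853 as in Δ3βG (1.13 to 1.44).

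Enzymes of glycolysis that run opposite to acu-6 and fbp-1 gave wide differences in ratio. ace-8 (NCU06075) encodes pyruvate kinase, which consumes the phosphoenolpyruvate that acu-6's enzyme makes. The RPKM ratio of acu-6 to ace-8 was 0.148 (0.132 to 0.165) in Δ3βGΔcdt2Δncu05853, 5.86 (5.56 to 6.18) in Δ3βGΔncu05853 and 28.9 (27.1 to 30.9) in Δ3βG. Messenger RNA for the gluconeogenic enzyme outnumbered that for pyruvate kinase in Δ3βGΔncu05853 and Δ3βG, and was outnumbered by it in Δ3βGΔcdt2Δncu05853. The ratio was 196 times lower in Δ3βGΔcdt2Δncu05853 than in Δ3βG (172 to 223), and 4.93 times lower in Δ3βGΔncu05853 than in Δ3βG (4.53 to 5.37).

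emp-3 (NCU00629) encodes phosphofructokinase, which makes the fructose bisphosphate that fbp-1's enzyme splits. fbp-1 over emp-3 was 0.205 (0.167 to 0.250) in RPKM in Δ3βGΔcdt2Δncu05853, 3.14 (2.89 to 3.42) in Δ3βGΔncu05853 and 5.37 (4.91 to 5.88) in Δ3βG. Here too the order of the genes was turned round in Δ3βGΔcdt2Δncu05853. The quotient for Δ3βGΔcdt2Δncu05853 against Δ3βG was 0.0383 (0.0306 to 0.0475), and that for Δ3βGΔncu05853 against Δ3βG was 0.584 (0.516 to 0.661).

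**Figure D4:**
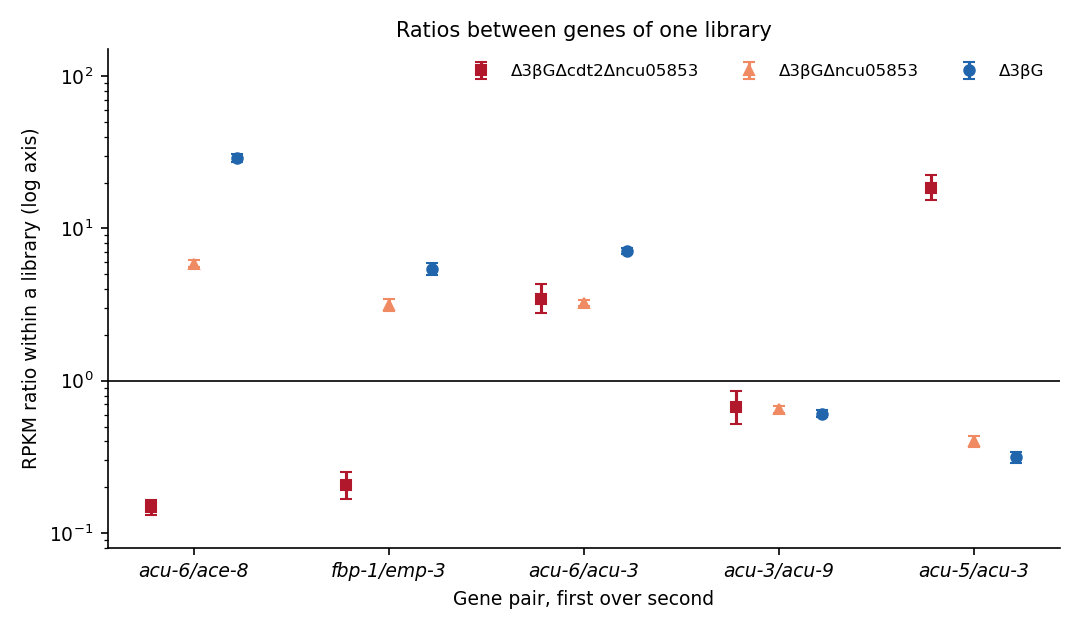
RPKM ratios (log axis) between genes of one library, with bars for the 95% counting interval and a line at 1. acu-6/ace-8 and fbp-1/emp-3 lie below 1 in Δ3βGΔcdt2Δncu05853 and above 1 in the other strains, whereas acu-3/acu-9 lies between 0.606 and 0.668 in all 3.

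Genes beside the 5 in the same metabolism were taken as lists by locus or by the symbols of the gene table. In the glycolysis and fermentation list, 12 of 12 genes stood at least 2-fold higher in Δ3βGΔcdt2Δncu05853 than in Δ3βG, where 19.4% of all genes did. On library totals without eas 9 of 12 did, against 10.6% of all genes. Log2 ratios ran from 1.12 for emp-1 (NCU02542) to 6.15 for the alcohol dehydrogenase gene adh-1 (NCU01754). In Δ3βGΔncu05853 against Δ3βG, adh-1 was the 1 of 12 at least 2-fold higher, where 0.55% of all genes were. All 12 were above 0 there, as were 50.1% of all genes, with a median log2 ratio of 0.63.

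The 2 remaining genes named for acetate use had log2 ratios above 0 for Δ3βGΔcdt2Δncu05853 against Δ3βG, as did 48.6% of all genes. At least 2-fold higher was 1 of the 2, where 19.4% of all genes were. On library totals without eas 0 were, against 10.6% of all genes, whereas acu-5 stayed past 2-fold there. acu-8 (NCU09770), for acetyl-CoA hydrolase, had 941 reads in Δ3βGΔcdt2Δncu05853, 526 in Δ3βGΔncu05853 and 416 in Δ3βG. Its ratio for Δ3βGΔcdt2Δncu05853 against Δ3βG was 2.62 (2.33 to 2.95) on the TMM scale, with a log2 ratio of 0.69 on library totals without eas, short of 2-fold. acu-15 (NCU06656) encodes a transcriptional activator of acetate utilization genes. It had 10479 reads in Δ3βGΔcdt2Δncu05853, 8719 in Δ3βGΔncu05853 and 6523 in Δ3βG, with log2 ratios of 0.90 and 0.30 against Δ3βG, both short of 2-fold. On library totals without eas, the log2 ratio of acu-15 for Δ3βGΔcdt2Δncu05853 against Δ3βG was 0.20. For Δ3βGΔcdt2Δncu05853 against Δ3βGΔncu05853 the log2 ratio of acu-15 was 0.60, and it turned to -0.10 on library totals without eas. These values are for messenger RNA only. The activity of the acu-15 protein, and its part in the levels of acu-3, acu-9 and acu-6, was not tested. The carbon catabolite repressor gene cre-1 (NCU08807), which crosses this metabolism, had 561 reads in Δ3βGΔcdt2Δncu05853, 1338 in Δ3βGΔncu05853 and 1358 in Δ3βG. It was 2.09-fold lower (1.89 to 2.31) in Δ3βGΔcdt2Δncu05853 than in Δ3βG, where 15.4% of all genes were at least 2-fold lower. The interval of this ratio includes 2. Against Δ3βGΔncu05853, cre-1 was 1.89-fold lower (1.71 to 2.09) in Δ3βGΔcdt2Δncu05853, short of 2-fold. On library totals without eas its log2 ratio was -1.76 against Δ3βG and -1.62 against Δ3βGΔncu05853.

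The glyoxylate cycle shares citrate synthase, aconitase and malate dehydrogenase with the citrate cycle, and the genes for these enzymes did not follow acu-3 and acu-9. Of these 4 genes, 3 were at least 2-fold higher in Δ3βGΔcdt2Δncu05853 than in Δ3βG, where 19.4% of all genes were. None of the 4 was at least 2-fold lower, where 15.4% of all genes were. cit-1 (NCU01692), for citrate synthase, had 4178 reads in Δ3βGΔcdt2Δncu05853, 2038 in Δ3βGΔncu05853 and 1798 in Δ3βG, a ratio to Δ3βG of 2.69 (2.55 to 2.85) in Δ3βGΔcdt2Δncu05853. The malate dehydrogenase genes tca-16 (NCU06211) and tca-15 (NCU04899) were 2.47-fold (2.39 to 2.56) and 2.36-fold (2.22 to 2.52) higher. tca-3 (NCU02366), for aconitase, had a log2 ratio of 0.81. On library totals without eas all 4 stayed above 0, where 25.9% of all genes were. On that scale 0 were at least 2-fold higher, where 10.6% of all genes were. The remaining 13 citrate cycle genes had a median log2 ratio of 0.18, which turned to -0.51 on library totals without eas. At least 2-fold higher were 2 of the 13 on the TMM scale, against 19.4% of all genes, and 0 on totals without eas, against 10.6%, so these counts did not exceed the share over all genes. None of the 17 was at least 2-fold apart in Δ3βGΔncu05853 against Δ3βG, where 0.642% of all genes were lower and 0.55% higher by that much. Their median was 0.10.

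Genes for peroxisome biogenesis, which build the organelle that holds the bypass enzymes, had a median ratio below 1 in Δ3βGΔcdt2Δncu05853 against Δ3βG. Of 20 genes, 8 were at least 2-fold lower, where 15.4% of all genes were, and 0 were at least 2-fold higher, where 19.4% were. The median log2 ratio was -0.87, with 19 of 20 below 0, as were 51.4% of all genes. On library totals without eas, 18 were at least 2-fold lower, where 38.4% of all genes were, and 20 were below 0, as were 74.1% of all genes. pex20 (NCU04062), for a co-receptor of protein import, had 36 reads in Δ3βGΔcdt2Δncu05853, 272 in Δ3βGΔncu05853 and 329 in Δ3βG. It was 7.89-fold lower (5.58 to 11.5) in Δ3βGΔcdt2Δncu05853 than in Δ3βG, the lowest ratio of the list. pex3 (NCU06175), for a membrane protein of peroxisome assembly, was 3.54-fold lower (2.84 to 4.44). The import receptor gene pex5 (NCU02960) was 1.81-fold lower (1.69 to 1.95), short of 2-fold. pex4 (NCU02636) was the highest, at a log2 ratio of 0.03, which turned to -0.66 on library totals without eas. For Δ3βGΔncu05853 against Δ3βG 0 of 20 were at least 2-fold apart (0.642% of all genes were lower and 0.55% higher by that much), which is at the background. The median there was -0.01, and log2 ratios ran from -0.40 for pex20 to 0.21 for pex10 (NCU03277).

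**Figure D5:**
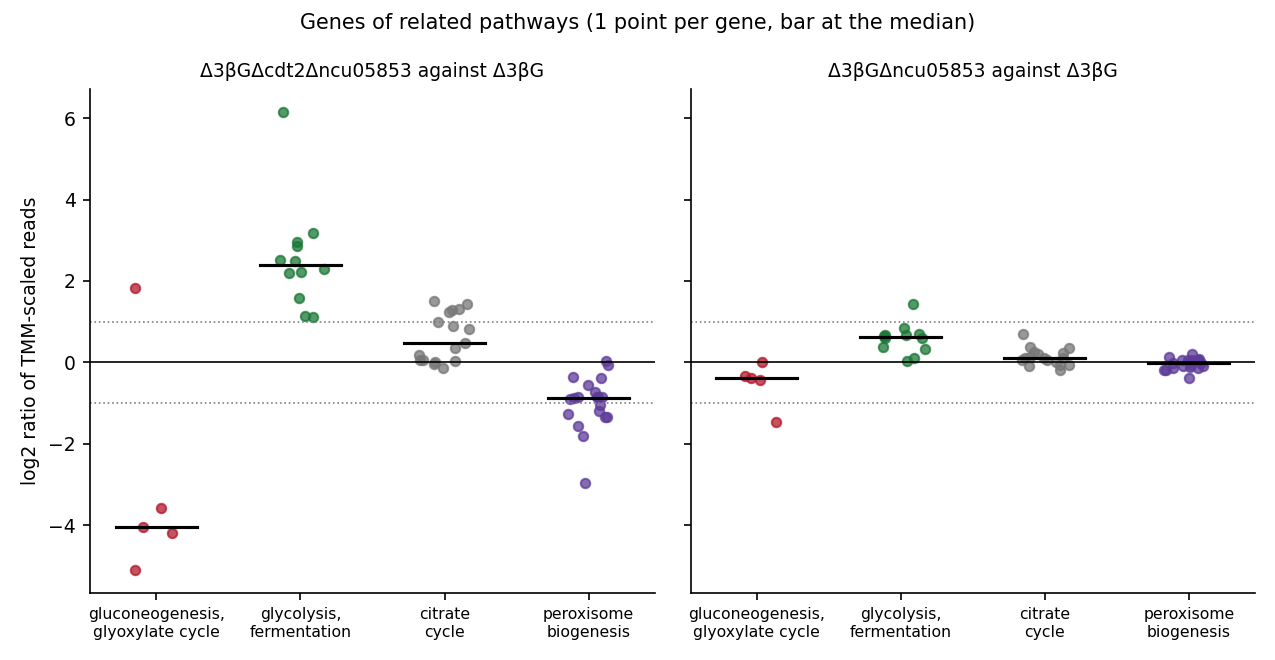
log2 ratios of TMM-scaled reads for single genes (points) and list medians (bars), with dotted lines at 2-fold. In Δ3βGΔcdt2Δncu05853 against Δ3βG (left) the medians are -4.05, 2.38, 0.47 and -0.87 from left to right. In Δ3βGΔncu05853 against Δ3βG (right) they are -0.39, 0.63, 0.10 and -0.01.

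Likeness of pattern over the 3 libraries was measured as the distance between genes in the plane of both log2 ratios to Δ3βG, among the 6545 genes. NCU03918, NCU07345 and NCU09049 were nearest to acu-6, at distances of 0.15 to 0.18. NCU03918 had 17 reads in Δ3βGΔcdt2Δncu05853, 316 in Δ3βGΔncu05853 and 745 in Δ3βG. The other members were 1.38 or more away from acu-6, with acu-9 the closest of them. For acu-3 the nearest genes were NCU02126, NCU07263 and NCU02127, at 0.09 to 0.14, followed in 4th place by acu-9 at 0.17. acu-3 was in turn 4th from acu-9, after NCU07263, NCU02130 and NCU06425. fbp-1 was nearest to NCU04470, NCU09553 and NCU03913, at 0.06 to 0.09, and acu-5 to NCU06815, NCU08174 and NCU09910, at 0.01 to 0.03. None of these 14 genes has a name in the gene table.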

How the data were processed

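RNA was sequenced from mycelia of 3 strains, 1 library per strain, with strains taken from the labels. The authors deposited raw read counts per gene, made with TopHat and HTSeq per the submitters' processing notes. Their versions, the genome build, the annotation and whether strand was used are not stated in the sources used here. Deposited RPKM values were related by the authors to all reads of a file: recomputed from counts, exon lengths and that total, they differed by at most 1.93e-08 of the value. Per the file headers, each gene's exon length is given, here read as bases.

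Reads that name no gene were left out of library sizes: outside genes 5.16%, 8.41% and 9.64% of all reads in Δ3βGΔcdt2Δncu05853, Δ3βGΔncu05853 and Δ3βG, with several alignments 2.48%, 4.91% and 6.36%, and ambiguous 0.895%, 0.897% and 0.844%. Counts were scaled with TMM factors (edgeR 4.0.16, R 4.3.3) of 0.833, 1.09 and 1.10 in that order. Log2 ratios used a prior of 0.5 counts; folds have no prior and exact conditional 95% intervals (Clopper-Pearson, SciPy 1.17.1), and quotients of gene ratios have exact conditional intervals of the odds ratio. Genes averaging at least 10 CPM over the libraries were compared, 6545 in all after the 5 deleted ones were removed; a gene with 3 reads or fewer in both libraries was not counted as apart. The code was tested on simulated counts.

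Symbols came from the RefSeq table of assembly NC12, which matched 9729 of 9730 identifiers; without a stated build no coordinates are given. Promoter and protein sequences were not analysed here, so a planned motif search was not made and near-identical copies were not looked for. The members, the lists and the tests were chosen with earlier results of these data known. Named were all members, the highest and lowest gene of each list, list genes of known role, and the 3 genes nearest in pattern to each member. Alternatives were 5 other scalings (one with DESeq2 1.42.0 size factors), a prior of 5 counts, no filter, and a 4-fold threshold.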

Additional observations from a re-analysis of the deposited data

How the results depend on the processing

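No paired analysis was possible because each strain had 1 library, and no replicate could be left out. For the 5 genes no direction turned and no call at 2-fold was lost or gained under any scaling or prior tried. The median log2 ratio of the 5 genes for Δ3βGΔcdt2Δncu05853 against Δ3βG was -4.46 on library totals, -4.75 on totals without eas and -4.43 without the 50 genes with most counts. For Δ3βGΔcdt2Δncu05853 against Δ3βGΔncu05853 it was -4.02, -4.33 and -4.03 on these scales and -3.92 on all reads in the file. At a 4-fold threshold 0 members were higher in either of these comparisons, and 0 lower in Δ3βGΔncu05853 against Δ3βG.

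Counts of all genes moved more. For Δ3βGΔcdt2Δncu05853 against Δ3βG, 2515 genes were at least 2-fold lower and 697 higher on totals without eas, 1765 lower on library totals, and 1713 lower without the 50 top genes; 539 were at least 4-fold higher and 286 lower. For Δ3βGΔcdt2Δncu05853 against Δ3βGΔncu05853 the counts lower were 1541 on library totals, 2455 on totals without eas, 1571 without the 50 top genes and 1301 on all reads; 556 were higher on totals without eas, and 1630 with no filter. At 4-fold, 434 were higher and 229 lower. For Δ3βGΔncu05853 against Δ3βG, 177 were higher and 175 lower with no filter, and 3 and 0 at 4-fold.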

Other observations

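None of the 10 genes next to the 5 on their chromosomes overlaps a member in the gene table. Of the 7 that were among the genes compared, 2 were at least 2-fold lower in Δ3βGΔcdt2Δncu05853 than in Δ3βG, where 15.4% of all genes were. These were NCU04231 beside acu-3 with a log2 ratio of -2.29 and NCU04796 beside fbp-1 with -1.74. acu-9 stands next to the citrate cycle gene tca-14 (NCU10008), which had a log2 ratio of 0.88 beside -4.20 for acu-9. Of the 7, 0 were at least 2-fold apart in Δ3βGΔncu05853 against Δ3βG, where 0.642% of all genes were lower and 0.55% higher by that much, so the count is at the background.

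Some genes nearest in pattern to acu-3 and acu-9 lie close to each other, which was noticed after their values had been seen. How often genes with such ratios lie this close was not tested. NCU02126 and NCU02127 are neighbours, and NCU02130 lies 3 places from NCU02127. NCU02126 had 30 reads in Δ3βGΔcdt2Δncu05853, 519 in Δ3βGΔncu05853 and 569 in Δ3βG, NCU02127 had 58, 849 and 1050, and NCU02130 had 357, 5637 and 7484. Between them, NCU02128 had a log2 ratio of -1.01 for Δ3βGΔcdt2Δncu05853 against Δ3βG, and NCU02129 had 3, 23 and 34 reads in the same order of strains. rgf3 (NCU02131), on the far side of NCU02130, had a log2 ratio of -0.60. NCU02125, on the far side of NCU02126, had 16, 39 and 47 reads. NCU03913 and NCU03918, near in pattern to fbp-1 and acu-6, lie 3 places apart. Between these, NCU03914 and NCU03915 had log2 ratios of -1.05 and -0.03 for Δ3βGΔcdt2Δncu05853 against Δ3βG.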
